A study of Mus musculus with 6 samples.

Results

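Notch signalling was followed through 10 genes in cells sorted from the dorsal pancreatic bud of mouse embryos: the receptors Notch1, Notch2 and Notch3, the ligands Dll1 and Jag1, the Fringe enzymes Lfng and Mfng, and the Hes and Hey family genes Hes1, Hes6 and Hey1. They were taken by name from the 24062 genes counted in each library, and all 10 were present. Per the labels, GFP and Tomato cells were separated by flow cytometry and the frozen fractions were pooled before RNA was extracted. Sequencing gave 6 libraries, 1 for each group: mutant and control mesenchyme at E12.5, mutant and control epithelium at E14.5, and mutant and control epithelium at E12.5. Mutant embryos were mTmG+/-, Nkx2.5-Cre+/- and Pbx2+/-, and the control genotype is named only as mTmG, a reporter whose cells are Tomato-positive until Cre recombinase turns them GFP-positive. Nkx2.5-Cre is expressed from the locus of Nkx2-5, a homeobox gene of the pancreatic mesenchyme, and Pbx2 encodes a homeodomain partner of Hox and Meis proteins. Neither the source of GFP cells in control buds nor the number of embryos in a pool is given. Mutant and control below name the libraries by their labels.

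Notch receptors are membrane proteins that are cleaved when a Delta or Jagged ligand on a neighbouring cell binds them. The released intracellular part joins the DNA-binding protein RBPJ and switches on genes of the Hes and Hey families, whose products repress transcription, while Fringe enzymes add sugars to the receptors and so change which ligand activates them. In the developing mouse pancreas, Notch signalling is known for keeping epithelial cells in a progenitor state, with Hes1 restraining Neurog3, the factor that starts endocrine differentiation.

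Promoter sequence was read from RefSeq (GRCm38.p6, the 250 bases before each start) for the 7 of the 10 genes with an entry, which leaves Hes1, Hey1 and Mfng. Lfng was the only 1 of the 7 whose window held the RBPJ core TGGGAA or its complement TTCCCA, a motif present in 21.6% of 32851 RefSeq promoters. It held 2 matches, at -135 and -108 from the start at base 140607341 of chromosome 5. The match at -108 is of the longer form GTGGGAA, present in 5.42% of promoters, and it overlaps an E-box, CACGTG. The sequence is shown because Lfng is the only 1 of the 10 genes past 2-fold higher at E14.5 in control epithelium, a call that 3 other scalings below do not keep. It is given with the RBPJ core in capitals, on the plus strand at chr5:140607091-140607319, ending before the first annotated exon.
Lfng: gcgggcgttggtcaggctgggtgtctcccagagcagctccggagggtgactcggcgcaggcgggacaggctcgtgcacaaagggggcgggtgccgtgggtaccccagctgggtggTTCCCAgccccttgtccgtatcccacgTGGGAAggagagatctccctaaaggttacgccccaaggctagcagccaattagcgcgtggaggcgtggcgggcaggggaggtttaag

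Dll1 and Hes6 are shown for the E-box CANNTG, the motif bound by basic helix-loop-helix proteins such as Neurog3, with each match in capitals. Each window lies before the outer of 2 RefSeq starts and held 3 matches. The Dll1 window is chr17:15376933-15377182 on the minus strand and the Hes6 window is chr1:91414039-91414288 on the minus strand. The windows before the inner starts, which are not shown, held 1 match for Dll1 and 1 for Hes6. Lfng held 2 matches, Jag1 held 1, and Notch1, Notch2 and Notch3 held none. E-boxes occurred in 66.2% of promoters and the N-box CACNAG, the site described for Hes repressors, in 36.7%, so a match describes the letters of a window and no binding was measured.
Dll1: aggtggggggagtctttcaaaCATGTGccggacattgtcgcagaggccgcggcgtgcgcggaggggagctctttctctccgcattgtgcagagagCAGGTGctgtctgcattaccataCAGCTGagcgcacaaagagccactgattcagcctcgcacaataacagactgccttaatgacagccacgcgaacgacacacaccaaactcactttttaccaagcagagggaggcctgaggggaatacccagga
Hes6: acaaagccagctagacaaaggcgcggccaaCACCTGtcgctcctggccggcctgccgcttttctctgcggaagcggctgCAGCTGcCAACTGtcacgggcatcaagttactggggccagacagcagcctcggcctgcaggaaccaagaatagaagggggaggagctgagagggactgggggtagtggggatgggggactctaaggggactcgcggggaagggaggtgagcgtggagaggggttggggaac

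Counts on genes per library ran to between 14032569 and 20276045. Levels are counts divided by library size (CPM) and scaled by TMM factors, which lay between 0.941 and 1.047. With 1 library a group there was no replicate spread, no test across samples and no p-value. Every interval is a 95% interval for counting error alone, and differences between pools, or between reads and independent molecules, are not in it. A gene was measured in a comparison where either library reached 5 CPM, and called higher or lower where its ratio was at least 2-fold with an interval that left out 1. Numbers of Notch genes called are set beside the percentage of all measured genes called. All 10 genes reached 5 CPM in at least 1 library and 7 in every library. Epcam, an epithelial adhesion molecule, had 3.79 CPM in mutant and 4.43 CPM in control mesenchyme, against 462 and 508 CPM in mutant and control E12.5 epithelium. The 25 general mesenchymal markers were also present in the epithelial libraries, where they summed to 4865 to 11406 CPM, so these libraries were not free of mesenchymal RNA. Pbx2 stood at 56.0 CPM in mutant and 89.9 CPM in control mesenchyme, at 47.3 CPM in mutant and 34.0 CPM in control E14.5 epithelium, and at 49.7 CPM in mutant and 54.5 CPM in control E12.5 epithelium. Its level was thus lower with the mutant label by 1.60-fold (1.47 to 1.75) in mesenchyme and higher by 1.39-fold (1.24 to 1.56) in E14.5 epithelium. The labels do not say which part of Pbx2 the mutant allele lacks, so its level is no full check of them.

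Notch1, the receptor encoded at chr2:26457903-26516663 (GENCODE M21), was highest in the E12.5 epithelial libraries. It had 20.5 CPM in mutant and 19.3 CPM in control mesenchyme, 23.6 CPM in mutant and 54.2 CPM in control E14.5 epithelium, and 61.4 CPM in mutant and 103 CPM in control E12.5 epithelium. The 2 mesenchymal libraries and mutant E14.5 epithelium lay together at the low end, with neighbouring intervals that overlapped.

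Notch2, at chr3:98013527-98150361, was high in both control libraries of E12.5 and low in both libraries of E14.5. It had 39.3 CPM in mutant and 91.1 CPM in control mesenchyme, 19.6 CPM in mutant and 22.5 CPM in control E14.5 epithelium, and 54.1 CPM in mutant and 95.4 CPM in control E12.5 epithelium. The intervals of control E12.5 epithelium and control mesenchyme overlapped, as did those of the 2 libraries of E14.5.

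Notch3, at chr17:32120820-32166852, is best known from vascular smooth muscle and pericytes, and it was highest in mesenchyme. It had 101 CPM in mutant and 106 CPM in control mesenchyme, 21.8 CPM in mutant and 13.8 CPM in control E14.5 epithelium, and 54.1 CPM in mutant and 74.2 CPM in control E12.5 epithelium. The 2 mesenchymal intervals overlapped and every other neighbouring pair in its order was apart, which gave the widest range of the receptors, 7.66-fold. The 11 smooth muscle and pericyte markers summed to 420 CPM in mutant and 685 CPM in control mesenchyme, 953 CPM in mutant and 251 CPM in control E14.5 epithelium, and 553 CPM in mutant and 359 CPM in control E12.5 epithelium, with none of the 11 at 0 in any library. Their part in the Notch3 levels was not tested.

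Of the ligands, Dll1 was higher in the 4 epithelial libraries than in the mesenchymal ones, and Jag1 was in both fractions. Dll1 (chr17:15367354-15376872), a Delta ligand known from endocrine progenitors, had 6.30 CPM in mutant and 1.54 CPM in control mesenchyme, 23.9 CPM in mutant and 40.6 CPM in control E14.5 epithelium, and 31.6 CPM in mutant and 56.6 CPM in control E12.5 epithelium. No 2 neighbours in this order had intervals that overlapped, and the range was 36.7-fold. Jag1 (chr2:137081456-137116644), the Jagged ligand whose human gene is mutated in Alagille syndrome, had 60.6 CPM in mutant and 140 CPM in control mesenchyme, 33.1 CPM in mutant and 45.9 CPM in control E14.5 epithelium, and 85.7 CPM in mutant and 117 CPM in control E12.5 epithelium. Jag1 was highest in control mesenchyme and lowest in mutant E14.5 epithelium, again with no neighbouring intervals that overlapped.

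The Fringe genes differed in where they were found. Lfng (chr5:140607320-140615545), known for its part in the segmentation clock, had 32.9 CPM in mutant and 25.6 CPM in control mesenchyme, 45.6 CPM in mutant and 78.2 CPM in control E14.5 epithelium, and 44.3 CPM in mutant and 36.7 CPM in control E12.5 epithelium. It varied by 3.06-fold over the libraries. Mfng (chr15:78755882-78773475), known from Neurog3-expressing cells of the mouse pancreas, had 1.61 CPM in mutant and 0.872 CPM in control mesenchyme, 33.4 CPM in mutant and 34.5 CPM in control E14.5 epithelium, and 17.7 CPM in mutant and 27.2 CPM in control E12.5 epithelium. Mfng was thus almost absent from the mesenchymal libraries, at 25 counts in mutant and 13 counts in control mesenchyme, and its range of 39.5-fold was the widest of the 10 genes.

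Hes1 (chr16:30064384-30067796), the repressor through which Notch is known to act on pancreatic progenitors, was high everywhere. It had 224 CPM in mutant and 234 CPM in control mesenchyme, 135 CPM in mutant and 242 CPM in control E14.5 epithelium, and 148 CPM in mutant and 173 CPM in control E12.5 epithelium. Its range of 1.80-fold was the narrowest of the 10 genes, and control E14.5 epithelium and both mesenchymal libraries had overlapping neighbouring intervals at the top.

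Hes6 (chr1:91411483-91414038), a family member known to oppose Hes1 and to accompany neuronal and endocrine differentiation, had 74.8 CPM in mutant and 57.5 CPM in control mesenchyme, 150 CPM in mutant and 167 CPM in control E14.5 epithelium, and 110 CPM in mutant and 103 CPM in control E12.5 epithelium. Hey1 (chr3:8663359-8667256), a target of Notch known from endothelium, had 4.89 CPM in mutant and 9.39 CPM in control mesenchyme, 13.2 CPM in mutant and 13.2 CPM in control E14.5 epithelium, and 16.3 CPM in mutant and 34.9 CPM in control E12.5 epithelium. Hes6 was lowest in mesenchyme and highest at E14.5, while Hey1 was highest in control E12.5 epithelium and between 13.2 and 16.3 CPM in the other epithelial libraries, whose neighbouring intervals overlapped.

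**Figure D1:**
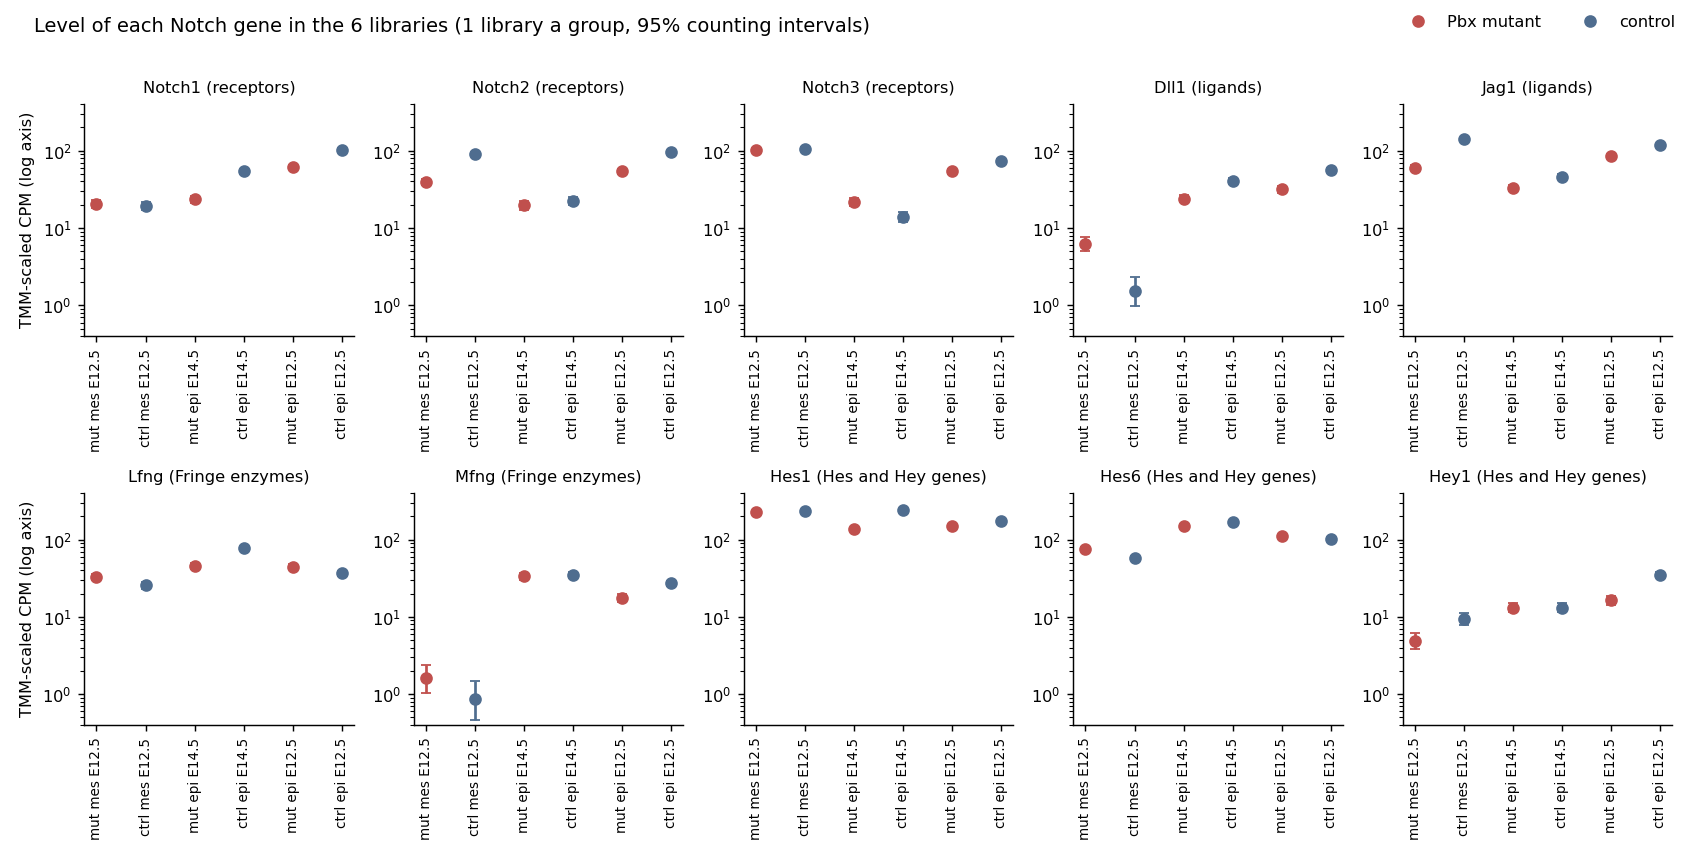
Level of each of the 10 genes in each library, as TMM-scaled CPM on a log axis, with 95% counting intervals, where mut is mutant, ctrl is control, mes is mesenchyme and epi is epithelium. Dll1 and Mfng lie below 10 CPM in both mesenchymal libraries and between 17.7 and 56.6 CPM in the 4 epithelial ones, while Hes1 stays between 135 and 242 CPM.

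In E12.5 mesenchyme, Notch2 and Jag1 were called lower in the mutant and Dll1 higher. Notch2 had 39.3 CPM in mutant and 91.1 CPM in control mesenchyme, 2.32-fold lower (2.11 to 2.56). Jag1 had 60.6 CPM in mutant and 140 CPM in control mesenchyme, also 2.32-fold lower (2.14 to 2.5). Only 2.3% of measured genes had a lower ratio than Notch2 and 2.4% a lower ratio than Jag1. Among all 11188 measured genes 3.5% were called lower and 1.96% higher, against 2 lower and 1 higher of the 9 Notch genes measured.

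Markers of several cell types were lower in the same mutant library as Notch2 and Jag1. Of 9 measured smooth muscle and pericyte markers 4 were called lower and none higher, with a median log2 ratio of -0.92 and Rgs5 at 27.8 CPM in mutant and 79.9 CPM in control mesenchyme. Of 7 measured leukocyte markers 6 were called lower, with a median of -1.77, and the 14 in the files summed to 48.9 CPM in mutant and 99.8 CPM in control mesenchyme. Of 5 measured mesothelial markers 2 were called lower and all 5 had a ratio below 1, with sums over the list of 6 of 108 CPM in mutant and 180 CPM in control mesenchyme. All 3 measured erythroid markers were called lower, and that list of 9 summed to 2.12 CPM in mutant and 65.7 CPM in control mesenchyme, with 7 at 0 in mutant and 5 at 0 in control. No leukocyte marker was at 0, and 1 mesothelial marker was at 0 in control alone. The part of these cell types in the Notch2 and Jag1 differences was not tested.

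Dll1 had 98 counts in mutant and 23 counts in control mesenchyme, a 4.09-fold higher level (2.57 to 6.74), and its ratio exceeded that of 99.6% of measured genes. Its level in mutant mesenchyme, 6.30 CPM, was still 5.01-fold lower (4.03 to 6.30) than in mutant epithelium of the same stage. Several values moved with it. Sox9, a progenitor transcription factor, had 66.6 CPM in mutant and 16.1 CPM in control mesenchyme. The sum of the other 7 pancreatic progenitor markers went the opposite way, at 6.11 CPM in mutant and 11.7 CPM in control mesenchyme. Of these 7, 2 were at 0 in mutant and 3 at 0 in control. Only 2 of the 8 markers were measured in this pair, Sox9 and another at a log2 ratio of -0.99. Of 5 measured endothelial markers 2 were called higher and none lower, with a median log2 ratio of 0.50. Pecam1 had 99 counts in mutant and 37 counts in control mesenchyme, and Plvap had 271 counts in mutant and 71 counts in control. Neural and neural crest markers were mixed, with 1 of 3 measured called higher and 1 lower. Elavl4 had 31.6 CPM in mutant and 4.36 CPM in control mesenchyme, Stmn2 had 0.322 CPM in mutant and 5.77 CPM in control, and the list of 12 summed to 42.4 CPM in mutant and 15.9 CPM in control, with 6 at 0 in mutant and 4 at 0 in control. The sum of the 25 general epithelial markers went the other way, at 123 CPM in mutant and 150 CPM in control mesenchyme. Pdx1 had 1 count in mutant and 0 counts in control mesenchyme. The part of these cell types in the Dll1 difference was not tested, and in pooled RNA fewer cells of a type and less RNA per cell cannot be told apart.

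The other receptors and the main effector hardly differed in mesenchyme. Notch1 had 20.5 CPM in mutant and 19.3 CPM in control mesenchyme, and Notch3 had 101 CPM in mutant and 106 CPM in control mesenchyme, with ratios of 1.06-fold higher (0.900 to 1.25) and 1.05-fold lower (0.975 to 1.12). Hes1 had 224 CPM in mutant and 234 CPM in control mesenchyme, a ratio within counting error. Hey1 had 76 counts in mutant and 140 counts in control mesenchyme, 1.92-fold lower (1.44 to 2.57) and short of the threshold. Lfng and Hes6 were 1.29-fold (1.13 to 1.48) and 1.30-fold (1.19 to 1.42) higher in the mutant, and Mfng was under 5 CPM in both libraries. The 9 measured genes had a median log2 ratio of -0.06, beside -0.01 for all measured genes.

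At E14.5, Notch1 was called lower in the epithelium labelled mutant, with 23.6 CPM in mutant and 54.2 CPM in control epithelium, 2.30-fold lower (2.02 to 2.62). It was the only 1 of the 10 genes called, where 6.4% of 12145 measured genes were called lower and 9.64% higher. Hes1 came next, with 135 CPM in mutant and 242 CPM in control E14.5 epithelium, 1.80-fold lower (1.70 to 1.90). Lfng, with 45.6 CPM in mutant and 78.2 CPM in control, was 1.72-fold lower (1.56 to 1.89), and Dll1, with 23.9 CPM in mutant and 40.6 CPM in control, was 1.70-fold lower (1.48 to 1.95). Jag1, at 33.1 CPM in mutant and 45.9 CPM in control, was 1.39-fold lower (1.23 to 1.56).

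Notch3 ran against Notch1 at E14.5, with 21.8 CPM in mutant and 13.8 CPM in control epithelium, 1.58-fold higher (1.32 to 1.89). Notch2 had 19.6 CPM in mutant and 22.5 CPM in control epithelium, a log2 ratio of -0.20, and the intervals of these levels overlapped. Hes6 had 150 CPM in mutant and 167 CPM in control epithelium, 1.11-fold lower (1.05 to 1.18). Mfng and Hey1 had ratios within counting error, at 33.4 CPM in mutant and 34.5 CPM in control for Mfng and 13.2 CPM in both for Hey1. The 10 genes had a median log2 ratio of -0.33, beside -0.03 for all measured genes.

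These E14.5 differences came with a large difference in marker content. The 25 general epithelial markers summed to 4526 CPM in mutant and 8179 CPM in control E14.5 epithelium, with a median log2 ratio of -0.94 and none at 0, and the 25 general mesenchymal markers summed to 11406 CPM in mutant and 5360 CPM in control, with 1 of them at 0 in control. Relative to the median of the epithelial markers, Notch1 had a log2 ratio of -0.26, Hes1 of 0.10, Lfng of 0.16, Dll1 of 0.18 and Jag1 of 0.47. Notch2 stood at 0.75, Hes6 at 0.79, Mfng at 0.90 and Hey1 at 0.94. All of these but Notch1 thus turned in sign. Notch3, at 1.60, was the only 1 of the 10 past 2-fold, where 43.1% of all measured genes were called higher and 1.26% lower. In the mutant 7 of the 11 markers of smooth muscle and pericytes were higher by 2-fold or more, as were 7 of 10 measured neural and neural crest markers and 3 of 13 measured leukocyte markers, while 6 of 8 pancreatic progenitor markers were called lower. Of 17 measured endothelial markers 3 were called higher and 2 lower, with Kdr at 14.9 CPM in mutant and 33.7 CPM in control. The smooth muscle and pericyte marker Rgs5 had 41.9 CPM in mutant and 5.0 CPM in control E14.5 epithelium. What share of the E14.5 differences follows the cell content of the fractions was not tested.

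In E12.5 epithelium, Hey1 was called lower, with 16.3 CPM in mutant and 34.9 CPM in control, 2.14-fold (1.85 to 2.48). No other Notch gene was called, beside 3.21% of 11991 measured genes called lower and 1.79% higher. The receptors and Dll1 were lower by less than 2-fold. Notch1 had 61.4 CPM in mutant and 103 CPM in control, 1.67-fold lower (1.55 to 1.81), Notch2 was 1.76-fold lower (1.62 to 1.91), Notch3 1.37-fold lower (1.26 to 1.5) and Dll1 1.79-fold lower (1.61 to 2.0). Lfng was 1.21-fold higher (1.09 to 1.34) and Hes6 1.07-fold higher (1.01 to 1.14) in the mutant.

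Together 8 of the 10 genes had a ratio below 1 in E12.5 epithelium, with a median log2 ratio of -0.54, beside 0.00 for all measured genes and -0.18 for the 25 epithelial markers. Relative to those markers Hey1 was short of 2-fold and none of the 10 genes was called. On that scale 2.99% of all 11991 measured genes were called higher and 2.13% lower. The 19 endothelial markers summed to 570 CPM in mutant and 457 CPM in control E12.5 epithelium, with Tie1 at 24.2 CPM in mutant and 35.4 CPM in control and Cdh5 at 23.3 CPM in mutant and 20.5 CPM in control. None of the 19 was at 0. Leukocyte markers had a ratio below 1 for all 13 measured, with a median log2 ratio of -0.57, none called, and Csf1r at 47.1 CPM in mutant and 82.9 CPM in control. Of 12 measured endocrine markers 3 were called lower, with a median of -0.45. Smooth muscle and pericyte markers went the other way, with 4 of 11 called higher and a median of 0.77, as did general mesenchymal markers, with 4 of 23 called higher and a median of 0.37. The part of these cell types in the Hey1 level and in the receptor levels was not tested.

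**Figure D2:**
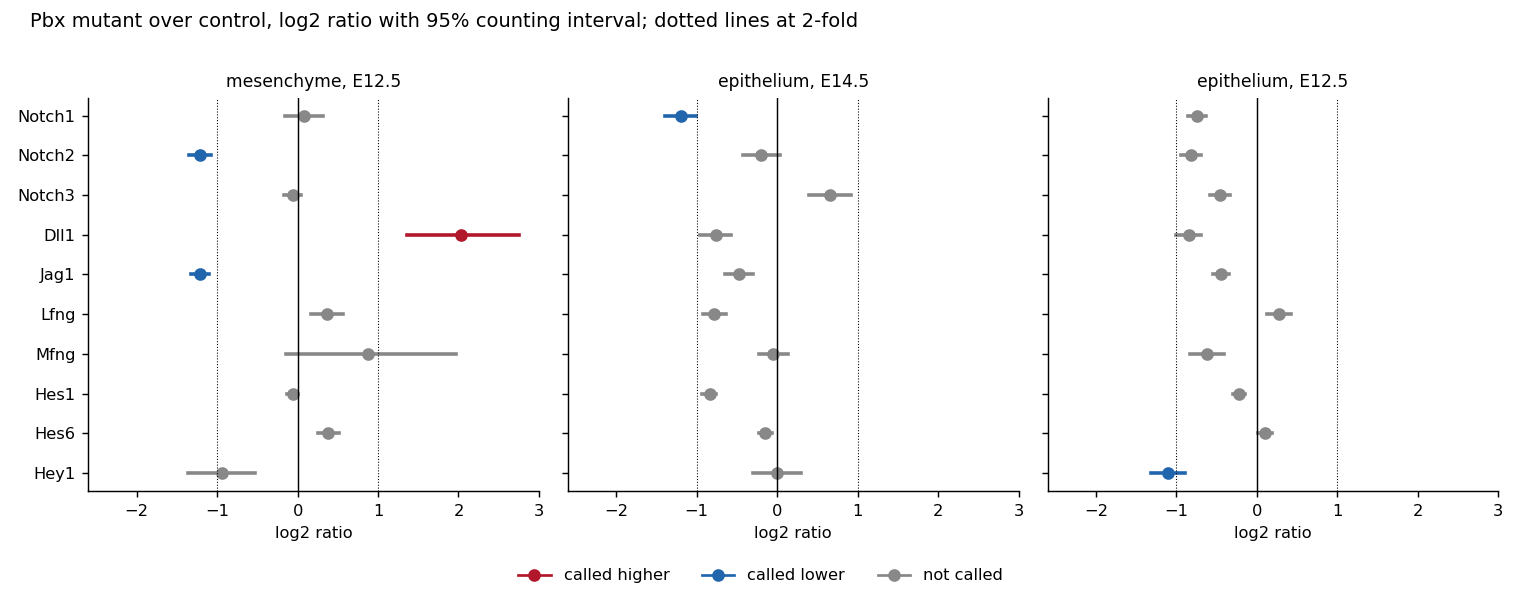
Log2 ratio of mutant over control for each gene in each pair of libraries, with 95% counting intervals and dotted lines at 2-fold. Dll1 lies to the right in mesenchyme at 2.03 with Notch2 and Jag1 both at -1.21, Notch1 lies at -1.20 in E14.5 epithelium, and Hey1 lies at -1.10 in E12.5 epithelium.

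Between the fractions of E12.5, Notch1, Dll1, Mfng and Hey1 were called lower in mesenchyme in both genotypes, and no Notch gene was called higher. In control, 13.6% of 12066 measured genes were called lower in mesenchyme and 7.0% higher. In mutant, 12.9% of 11956 were called lower and 5.42% higher. The 10 genes had a median log2 ratio of -0.53 in mutant and -0.68 in control, beside 0.04 for all measured genes in each. The fraction comparisons use the same E12.5 libraries as the genotype comparisons, so they are not independent of them.

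Dll1 was 5.01-fold lower in mutant mesenchyme than in mutant epithelium (4.03 to 6.30) and 36.7-fold lower in control mesenchyme than in control epithelium (24.3 to 58.1). Mfng was 11-fold lower in the mutant pair (7.29 to 17.3) and 31.2-fold lower in the control pair (18.1 to 58.9). Notch1 was 3.0-fold lower in the mutant pair (2.64 to 3.42) and 5.32-fold lower in the control pair (4.70 to 6.03), and Hey1 was 3.33-fold (2.57 to 4.37) and 3.71-fold lower (3.09 to 4.48) in mutant and control. The intervals of the mutant and control folds were apart for Dll1, Mfng and Notch1 and overlapped for Hey1.

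Markers of endothelium, leukocytes and neural crest moved with the same contrast, as did epithelial and endocrine markers. In each genotype 24 of 25 general epithelial and 11 of 12 measured endocrine markers were called lower in mesenchyme. Neurog3 had 4 counts in mutant and 1 count in control mesenchyme, against 693 counts in mutant and 1757 counts in control epithelium. The endothelial markers summed to 132 CPM in mutant and 117 CPM in control mesenchyme, against 570 CPM in mutant and 457 CPM in control epithelium of E12.5. Of the 19 markers, 2 were at 0 in mutant and 6 in control mesenchyme, where Cdh5 and Tie1, which define endothelium, had no count. Cdh5 had 3 counts and Tie1 had 19 counts in mutant mesenchyme. Leukocyte markers summed to 48.9 CPM in mutant and 99.8 CPM in control mesenchyme, against 369 CPM in mutant and 545 CPM in control epithelium, and 12 of 13 measured in mutant and 13 of 13 in control were called lower in mesenchyme. Neural and neural crest markers summed to 42.4 CPM in mutant and 15.9 CPM in control mesenchyme, against 123 CPM in mutant and 134 CPM in control epithelium, with 7 of 9 measured called lower and 1 higher in mutant and 8 of 9 lower in control. Sox10, which defines neural crest, had no count in either mesenchymal library. Endothelial cells are known to carry Notch1 and Hey1 transcripts, and the part of these cell types in the fraction differences was not tested.

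Notch3 and Hes1 were higher in mesenchyme in both genotypes, and Notch2 and Jag1 differed from epithelium by less than 2-fold. Notch3 was 1.88-fold higher in mesenchyme in mutant (1.72 to 2.04) and 1.43-fold higher in control (1.33 to 1.53), and Hes1 was 1.52-fold (1.44 to 1.60) and 1.35-fold (1.29 to 1.42) higher. Jag1 was 1.42-fold lower in mutant mesenchyme than in mutant epithelium (1.30 to 1.54) and 1.20-fold higher in control mesenchyme than in control epithelium (1.13 to 1.28). Notch2 was 1.38-fold lower in the mutant pair (1.24 to 1.53) and 1.05-fold lower in the control pair (0.977 to 1.12), within counting error in control alone. The mesenchymal libraries thus held Notch2, Notch3, Jag1 and Hes1 transcripts within 2-fold of the epithelial libraries of the same stage. General mesenchymal markers summed to 5701 CPM in mutant and 4865 CPM in control epithelium of this stage. They summed to 9817 CPM in mutant and 11405 CPM in control mesenchyme. The part of mesenchymal RNA in the epithelial levels of Notch2, Notch3, Jag1 and Hes1 was not tested.

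Between the stages, the receptors and Jag1 were lower in epithelium at E14.5 in both genotypes. In control epithelium Notch2 had 22.5 CPM at E14.5 and 95.4 CPM at E12.5. Notch3 had 13.8 CPM at E14.5 and 74.2 CPM at E12.5, which made it 5.36-fold lower (4.63 to 6.24), the largest stage difference of the 10 genes. Jag1 was 2.54-fold lower (2.33 to 2.77) and Hey1 2.64-fold lower (2.25 to 3.11). Lfng was called higher, with 78.2 CPM at E14.5 and 36.7 CPM at E12.5, 2.13-fold (1.94 to 2.34), but it was not called with plain CPM, relative to the epithelial markers or relative to genes of similar length. Among 12136 measured genes 11.2% were called lower and 6.53% higher, against 4 lower and 1 higher of the 10.

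Some lists of non-epithelial markers had a median ratio below 1 at E14.5 in control epithelium as well. Of 23 measured general mesenchymal markers 8 were called lower and 4 higher, with a median log2 ratio of -0.69. Pdgfrb had 36.4 CPM at E14.5 and 103 CPM at E12.5. Their list of 25 nevertheless summed to more at E14.5, 5360 CPM against 4865 CPM at E12.5, with 1 at 0 at E14.5. Of 19 endothelial markers 8 were called lower and none higher, with a median of -0.42 and sums of 423 CPM at E14.5 and 457 CPM at E12.5. Of 8 measured smooth muscle and pericyte markers 2 were called lower, with a median of -0.70, and Rgs5 had 5.0 CPM at E14.5 and 19.9 CPM at E12.5. In mutant epithelium these lists did not all go the same way, with 7 of 23 general mesenchymal markers called higher and none lower, 5 of 11 smooth muscle and pericyte markers higher and 1 lower, and 4 of 18 endothelial markers lower and 1 higher. Rgs5 had 41.9 CPM at E14.5 and 22.5 CPM at E12.5 there. The part of these cell types in the receptor differences between the stages was not tested.

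In mutant epithelium all 3 receptors were called lower at E14.5, Notch1 by 2.61-fold (2.30 to 2.97), Notch2 by 2.76-fold (2.41 to 3.18) and Notch3 by 2.48-fold (2.17 to 2.83). Jag1 was 2.59-fold lower (2.33 to 2.89). No Notch gene was called higher, beside 5.89% of 12167 measured genes called lower and 6.27% higher. Mfng had 33.4 CPM at E14.5 and 17.7 CPM at E12.5, 1.89-fold higher (1.62 to 2.2), whereas Lfng had 45.6 CPM at E14.5 and 44.3 CPM at E12.5, a ratio within counting error. In control epithelium it was Lfng that was higher by more than 2-fold, and Mfng by 1.27-fold (1.12 to 1.43). Notch1 in control, at 54.2 CPM at E14.5 and 103 CPM at E12.5, was 1.90-fold lower (1.75 to 2.06) and was not called.

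**Figure D3:**
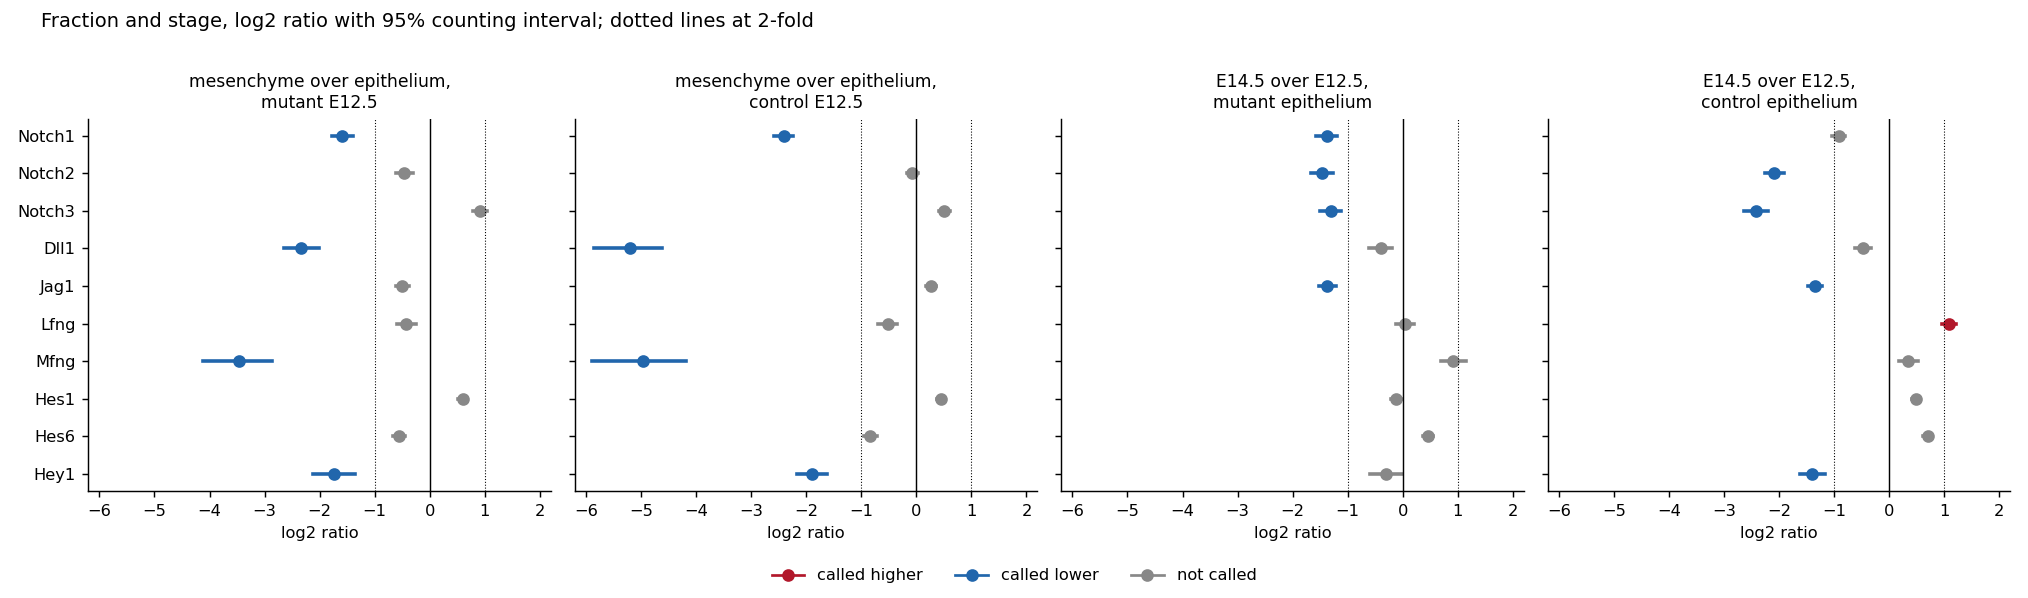
Log2 ratio of mesenchyme over epithelium at E12.5 and of E14.5 over E12.5 in epithelium, each in mutant and control, with 95% counting intervals and dotted lines at 2-fold. Dll1 and Mfng lie at -5.20 and -4.96 in the control fractions, and Notch3 lies at -1.31 in the mutant and -2.42 in the control stage comparison.

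Hes1 and Hes6 did not follow the receptors between the stages. In control epithelium Hes1 had 242 CPM at E14.5 and 173 CPM at E12.5, 1.40-fold higher (1.34 to 1.47), and Hes6 was 1.62-fold higher (1.53 to 1.72). In mutant epithelium Hes1 had 135 CPM at E14.5 and 148 CPM at E12.5, 1.10-fold lower (1.03 to 1.17), and Hes6 was 1.36-fold higher (1.28 to 1.46). These directions depend on the scaling in control, where the epithelial markers had a median log2 ratio of 0.88 and Hes1 stood at -0.39 and Hes6 at -0.18 relative to them. Notch1, Notch2, Notch3, Jag1 and Hey1 stayed lower at E14.5 on that scale in control, and so did Dll1, while Lfng, at 0.21, was not called.

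Gene length moved with the stage ratios. In control epithelium the median log2 ratio of E14.5 over E12.5 was 0.47 for genes under 2 kb of summed exons, 0.18 for 2 to 4 kb, -0.12 for 4 to 8 kb and -0.45 for 8 kb or more, where 77.5% of 2226 genes lay below 0. In mutant epithelium the medians were 0.26, 0.09, -0.08 and -0.23. The receptors are among the longest of the 10 genes, with 14232 bases of exons for Notch1, 10782 for Notch2 and 8089 for Notch3, followed by 5827 for Jag1, and the short genes are Hes1 with 2037 bases and Hes6 with 1808.

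Set against the median of their own length class, the receptors and Jag1 lost part of their stage difference. In mutant epithelium the log2 values were -1.15 for Notch1, -1.24 for Notch2, -1.08 for Notch3 and -1.29 for Jag1. In control epithelium they were -1.64 for Notch2, -1.98 for Notch3, -1.22 for Jag1 and -1.58 for Hey1, all still past 2-fold, and -0.47 for Notch1. Lfng, at 0.91, was no longer past it, and Hes6 came down to 0.19 in mutant and 0.23 in control. The same trend was present between the genotypes at E12.5, with medians of -0.20 in epithelium and -0.12 in mesenchyme for genes of 8 kb or more, and there it took Notch2 to -0.62 in epithelium and to -1.10 in mesenchyme. At E14.5 the genotype medians lay between -0.08 and -0.02 in every class. What gave the libraries this trend was not tested.

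**Figure D4:**
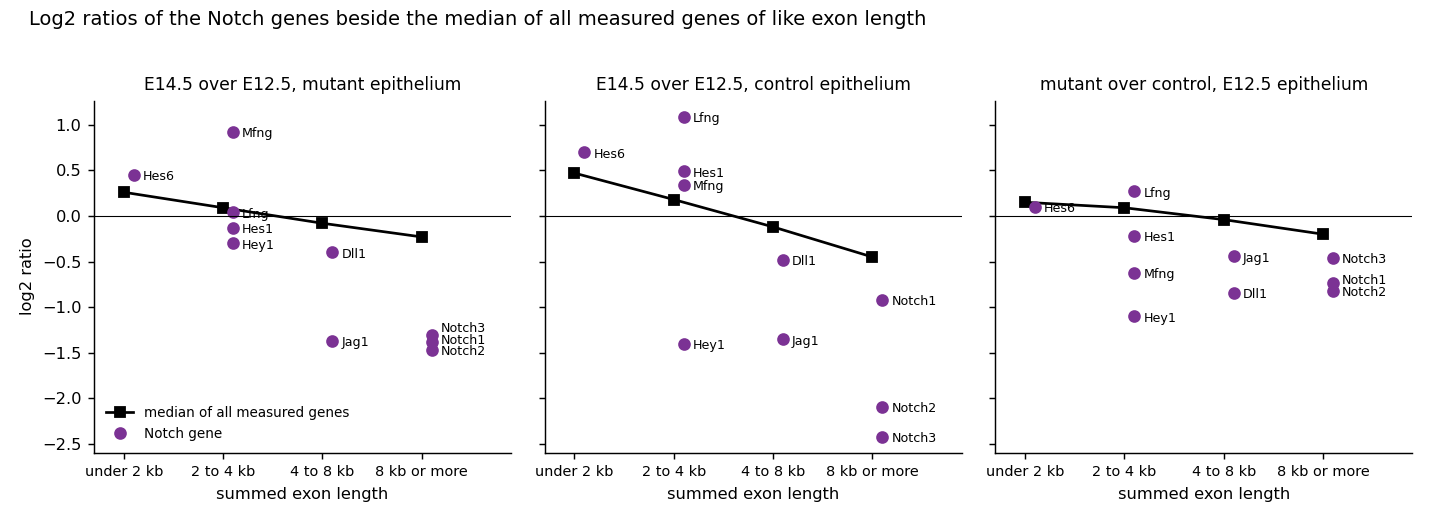
Log2 ratio of each Notch gene, placed by the class of its summed exon length, beside the median of all measured genes in that class, for E14.5 over E12.5 in mutant and control epithelium and for mutant over control in E12.5 epithelium. The medians run downward with length to -0.23, -0.45 and -0.20, and Notch2 and Notch3 lie well below them in both stage panels.

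The share of each receptor within a library does not depend on how libraries are scaled to each other. Per kb of exon, Notch3 made up 71.2% of the receptor level in mutant and 57.2% in control mesenchyme, 43.7% in mutant and 22.5% in control E14.5 epithelium, and 41.7% in mutant and 36.4% in control E12.5 epithelium. Notch1 made up 8.2% in mutant and 5.9% in control mesenchyme, 26.8% in mutant and 50.1% in control E14.5 epithelium, and 26.9% in mutant and 28.6% in control E12.5 epithelium. Notch2 made up 20.7% in mutant and 36.9% in control mesenchyme, 29.5% in mutant and 27.4% in control E14.5 epithelium, and 31.3% in mutant and 35.1% in control E12.5 epithelium. Control E14.5 epithelium was thus the library in which Notch1 was the main receptor, and Notch3 led in both mesenchymal and both mutant epithelial libraries. In control E12.5 epithelium Notch3 and Notch2 were within counting error of each other, with a ratio per kb of 1.04 (0.97 to 1.11). With the longest transcript as length, Notch1 led in control E12.5 epithelium as well, at 10.8 CPM per kb against 9.26 for Notch3. The summed receptor level per kb was 17.6 CPM in mutant and 22.9 CPM in control mesenchyme, 6.17 CPM in mutant and 7.60 CPM in control E14.5 epithelium, and 16.0 CPM in mutant and 25.2 CPM in control E12.5 epithelium.

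As a ratio of counts, Notch3 to Notch2 was higher in the mutant in all 3 pairs of libraries. It was 2.58 in mutant and 1.16 in control mesenchyme, 2.22-fold higher (1.97 to 2.5). At E14.5 it was 1.11 in mutant and 0.616 in control epithelium, 1.81-fold higher (1.41 to 2.31), and at E12.5 it was 0.999 in mutant and 0.778 in control epithelium, 1.28-fold higher (1.14 to 1.45). Notch2 to Notch1 gave no such common direction, with 1.92 in mutant and 4.72 in control mesenchyme and 0.832 in mutant and 0.415 in control E14.5 epithelium. All 3 receptors fall in the class of 8 kb or more, which has no upper bound. Notch2 has 10782 bases of exons and Notch3 8089, and a length trend inside the class was not tested. Smooth muscle and pericyte markers summed to 420 CPM in mutant and 685 CPM in control mesenchyme. They summed to 953 and 251 CPM in E14.5 epithelium and to 553 and 359 CPM in E12.5 epithelium. Their part in the Notch3 to Notch2 ratio was not tested.

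Hes6 to Hes1, with exon lengths of 1808 and 2037 bases on either side of a class boundary, was also higher in the mutant in all 3 pairs. The ratio of counts was 0.333 in mutant and 0.246 in control mesenchyme, 1.35-fold higher (1.22 to 1.5). It was 1.11 in mutant and 0.688 in control E14.5 epithelium, 1.62-fold higher (1.49 to 1.76), and 0.745 in mutant and 0.595 in control E12.5 epithelium, 1.25-fold higher (1.15 to 1.36). Set against the medians of their length classes, Hes6 and Hes1 had log2 ratios of 0.11 and -0.11 in mesenchyme, in place of 0.38 and -0.06. They then lay closer together. The values set against the classes were -0.07 and -0.83 in E14.5 epithelium and -0.05 and -0.32 in E12.5 epithelium. Mutant E14.5 epithelium was the only library with more counts of Hes6 than of Hes1, and per kb Hes6 stood at 83.2 CPM there against 66.3 CPM for Hes1. Hes1 was the most abundant of the 10 genes per kb in the other 5 libraries.

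Hey1 to Hes1 changed direction between the stages. It was lower in the mutant at E12.5, by 1.84-fold (1.38 to 2.48) in mesenchyme and 1.83-fold (1.57 to 2.15) in epithelium, and higher at E14.5 by 1.79-fold (1.45 to 2.23), with 0.0979 in mutant and 0.0545 in control. Mfng to Lfng likewise was 1.85-fold lower in mutant E12.5 epithelium (1.55 to 2.22), at 0.399 in mutant and 0.740 in control, and 1.66-fold higher in mutant E14.5 epithelium (1.41 to 1.96), at 0.732 in mutant and 0.440 in control. For both pairs the intervals of the 2 epithelial stages lay on opposite sides of 1.

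Dll1 to Jag1 differed most in mesenchyme, with 0.104 in mutant and 0.0110 in control, 9.45-fold higher (5.91 to 15.7). In epithelium it was 1.22-fold lower in the mutant at E14.5 (1.02 to 1.47) and 1.32-fold lower at E12.5 (1.16 to 1.5). Per kb, Dll1 made up 12.6% of the level of the 2 ligands in mutant and 1.5% in control mesenchyme, 49.9% in mutant and 55.0% in control E14.5 epithelium, and 33.7% in mutant and 40.1% in control E12.5 epithelium.

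**Figure D5:**
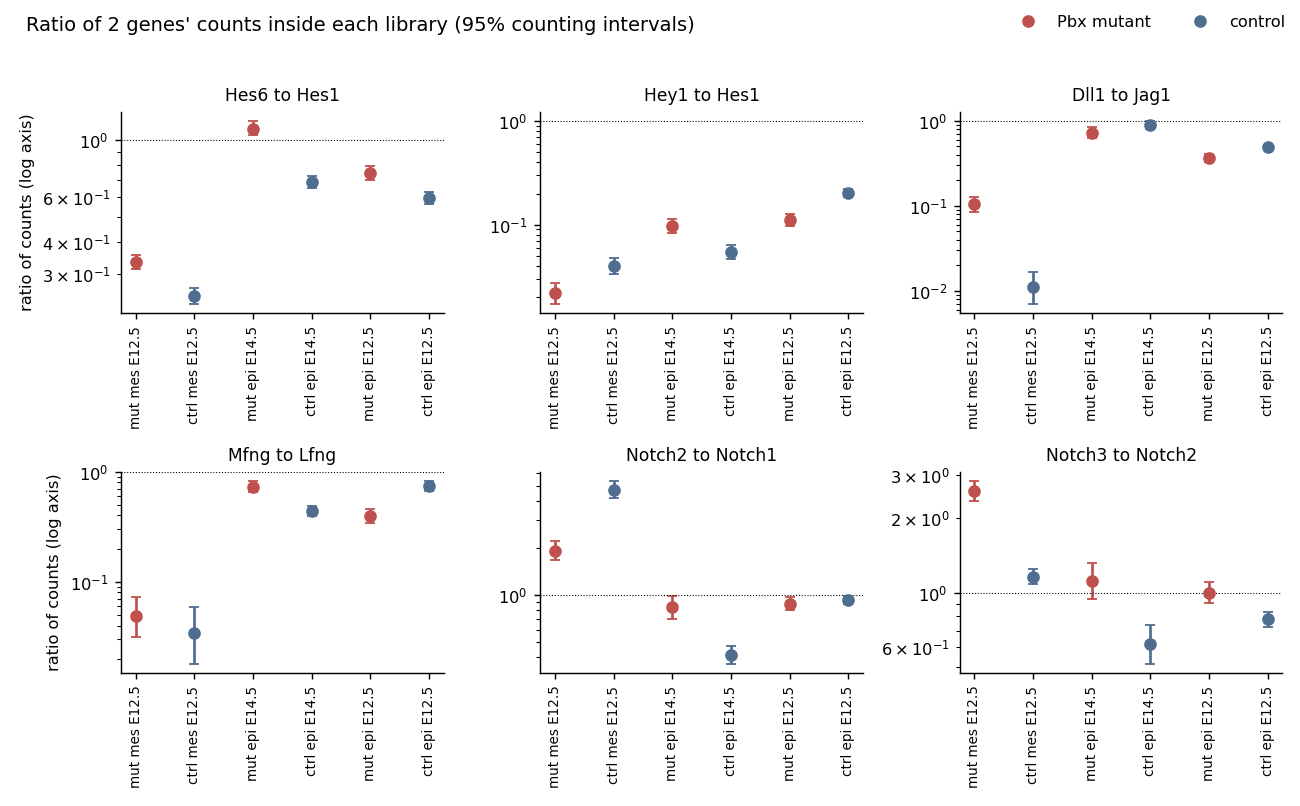
Ratio of the counts of 2 genes inside each library, on log axes with 95% counting intervals, where mut is mutant, ctrl is control, mes is mesenchyme and epi is epithelium, and the dotted line marks 1. Hes6 to Hes1 passes 1 only in mutant E14.5 epithelium, at 1.11, and Dll1 to Jag1 lies at 0.0110 in control mesenchyme.

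The wider pathway was read from 48 other Notch pathway genes, which include further receptors and ligands, the protease that releases the intracellular part, cofactors of RBPJ and regulators of ligand uptake. Their counts are given beside the percentages over all measured genes. Between the genotypes in mesenchyme 1 of 38 measured genes was lower and none higher, where 3.5% of all were lower and 1.96% higher, the lower gene being Dner, a transmembrane ligand-like protein, with 0.514 CPM in mutant and 5.77 CPM in control. In E14.5 epithelium 3 of 42 were higher and 2 lower, where 9.64% of all were higher and 6.4% lower. Hey2, a repressor related to Hey1, had 12.6 CPM in mutant and 2.40 CPM in control, 5.24-fold higher (3.63 to 7.77), Dtx1 was 4.35-fold higher and Maml1, a coactivator, 2.34-fold higher. Dll4, a Delta ligand of endothelium, was 2.10-fold lower (1.77 to 2.49) and Mib1, which drives ligand uptake, 2.13-fold lower. In E12.5 epithelium none of 41 was called, where 1.79% of all were higher and 3.21% lower. The medians of these lists were -0.18 in mesenchyme, 0.13 in E14.5 epithelium and -0.02 in E12.5 epithelium.

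Between the fractions, 6 of 41 other pathway genes were lower and 1 higher in mutant mesenchyme, and 7 of 42 were lower and 1 higher in control mesenchyme. Over all measured genes 12.9% were lower and 5.42% higher in mutant, and 13.6% lower and 7.0% higher in control, so the counts lie near the share of all genes. Nrarp, a Notch target whose product dampens the pathway, had 1.41 CPM in mutant and 0.134 CPM in control mesenchyme, against 87.4 CPM in mutant and 128 CPM in control epithelium. It rested on 22 counts in mutant and 2 counts in control mesenchyme. Dll4 had 1.67 CPM in mutant and 0.268 CPM in control mesenchyme against 15.7 CPM in mutant and 13.4 CPM in control epithelium, and Heyl, another Hey repressor, had 9.97 CPM in mutant and 17.7 CPM in control mesenchyme against 42.6 CPM in mutant and 42.2 CPM in control epithelium. Rbpj itself stood between 45.1 and 66.9 CPM in all 6 libraries. Hey2 did not go with Nrarp, Dll4 and Heyl. It had 13.9 CPM in mutant and 22.9 CPM in control mesenchyme against 13.8 CPM in mutant and 16.6 CPM in control epithelium. The mesenchymal libraries thus held receptor, ligand, Rbpj, Hes1 and Hey2 transcripts together with very little Nrarp.

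Between the stages, 2 of 43 other pathway genes were higher in mutant epithelium at E14.5 and 4 were lower, and 3 of 43 were higher and 8 lower in control epithelium. Over all measured genes 6.27% were higher and 5.89% lower in mutant, and 6.53% higher and 11.2% lower in control. The ligand Jag2 was higher in both, by 3.24-fold in mutant (2.09 to 5.17) and 4.56-fold in control (3.23 to 6.56), and stood at 5.96 CPM in mutant and 9.45 CPM in control at E14.5. Dner was 2.28-fold higher in mutant and 10.3-fold higher in control. Hey2 had 2.40 CPM at E14.5 and 16.6 CPM at E12.5 in control, 6.92-fold lower (4.88 to 10.1), and its mutant ratio was within counting error. Notch4, the remaining receptor and known from endothelium, was at most 7.54 CPM in any library. The medians of the list were -0.15 in mutant and -0.36 in control.

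Genes tied to Notch in the pancreas are given beside these values. Neurog3 had 223 CPM in mutant and 187 CPM in control E14.5 epithelium, and 45.5 CPM in mutant and 82.8 CPM in control E12.5 epithelium. Its mutant and control libraries thus stood in opposite order at the 2 stages, as did those of Mfng to Lfng. Sox9 had 257 CPM in mutant and 540 CPM in control E14.5 epithelium and 493 CPM in mutant and 656 CPM in control E12.5 epithelium. Ptf1a, a factor of multipotent and acinar progenitors, had 56.8 CPM in mutant and 189 CPM in control E14.5 epithelium, and 45.3 CPM in mutant and 51.3 CPM in control E12.5 epithelium. Like Notch1 and Hes1, Sox9 and Ptf1a were lower at E14.5 in the library labelled mutant, by 2.10-fold (2.02 to 2.19) and 3.32-fold (3.07 to 3.60). The 25 general epithelial markers had a median log2 ratio of -0.94 in this pair, and relative to them Hes1 stood at 0.10. Of 14 endocrine markers 2 were called lower and none higher, with sums of 1796 CPM in mutant and 2397 CPM in control. The part of epithelial cell content in these differences was not tested.

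Likeness of pattern was measured over the 6 libraries as the Euclidean distance between centred log2 values, among 11085 genes at 10 CPM or more in at least 1 library, with a pseudocount of 0.5. Within the 10 genes, Notch2 and Jag1 were closest at 0.523, and Lfng and Hes6 next at 0.528. Outside them, Hes1 was nearest to Mki67, a proliferation gene, at 0.142, and Hes6 to Cst3 at 0.116. Notch3 was nearest to Egfr at 0.399, Notch1 to Glis3 at 0.408, Dll1 to Mfsd6 at 0.322, Jag1 to Slit3 at 0.371 and Mfng to Rph3al at 0.401. Lfng was nearest to Hspe1 at 0.111, Hey1 to C3ar1 at 0.485 and Notch2 to Peg3 at 0.63. With 6 libraries many genes lie close to a gene that varies little, so the distance is a description of these libraries.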

How the data were processed

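For each of the 6 libraries the authors deposited raw counts by gene symbol, described as deduplicated in the table names. The submitters' processing notes name mm10, Cufflinks 2.2.1 and Cuffdiff 2.2.1, with the aligner, counter, annotation and strand setting not given in the sources used here. The 5 summary lines of each table were left out (no feature 4.69 to 8.84% of all entries, ambiguous 1.53 to 1.72%, not unique 13.72 to 20.05%). No gene of the count tables overlaps the exons of the 10 Notch genes.

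Scaling used TMM-adjusted CPM (edgeR 4.0.16, R 4.3.3). Intervals came from scipy 1.17.1 and numpy 2.4.6, tables from pandas 2.3.3 and figures from matplotlib 3.10.9, under Python 3.11.15. No test across samples was possible with 1 library in each group. Ratios of 2 libraries carry exact conditional binomial (Clopper-Pearson) intervals, levels exact Poisson intervals, and ratios inside a library exact conditional intervals, all at 95%. Exon lengths are unions of GENCODE M21 exons. Promoters come from RefSeq, and motifs were searched on both strands. The calculation was tested on simulated data with 200 genes changed by 1.5 on the log2 scale, of which 99.5% to 100% were recovered over the 7 comparisons. The simulated counts held counting error alone, and the changed genes were well counted and changed by more than the 2-fold threshold. No spread between pools, shift in cell content or length trend was simulated, so the recovery checks the arithmetic only.

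The Notch genes, gene lists and thresholds were chosen with earlier results of these data known. Genes named are the 10, some called members of the wider pathway list, and Notch4, Dll4, Jag2, Heyl, Nrarp, Rbpj, Neurog3, Sox9 and Ptf1a. The 2 genes nearest in pattern to each of the 10 were also taken, of which some are printed. Single marker genes were chosen after their values were seen. Alternatives were size factors by the median of ratios (DESeq2 1.42.0), plain CPM, no filter, a 1.5-fold threshold, ratios relative to the general epithelial genes and the longest transcript as length. Ratios relative to genes of similar length were added after seeing the data. A further item of the mutant genotype is not reported here.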

Additional observations from a re-analysis of the deposited data

How the results depend on the processing

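Which Notch genes were called did not change in any comparison with size factors by the median of ratios or without the filter on low values. With a threshold of 1.5-fold, 5 genes were called in E12.5 epithelium between the genotypes, all lower. Of all measured genes 10.5% were lower and 6.01% higher there. In E14.5 epithelium 5 were called, 1 higher and 4 lower, where 17.4% of all were higher and 14.9% lower. In mesenchyme 1 was higher and 3 lower, adding Hey1, beside 6.08% higher and 9.05% lower of all. Between the fractions 2 were higher and 4 lower in mutant, adding Notch3 and Hes1 as higher, beside 13.9% and 18.8%. In control none was higher and 5 lower, adding Hes6, beside 15.1% and 19.4%. Between the stages 1 was higher and 4 lower in mutant, adding Mfng, beside 12.9% and 14.9%. In control 2 were higher and 5 lower, adding Notch1 and Hes6, beside 17.0% and 22.7%. Relative to the general epithelial genes, 0 were called in E12.5 epithelium, where 2.99% of all measured genes were higher and 2.13% lower. Notch3 replaced Notch1 in E14.5 epithelium, where 43.1% of all were higher and 1.26% lower. Between the stages in control 6 were called lower with none higher, where 44.7% of all were lower and 2.0% higher. That scale put the median log2 ratio of all genes at 0.91 in the E14.5 and 0.18 in the E12.5 genotype comparison, and at -0.20 in mutant and -0.91 in control between the stages. The share of all calls that were higher was then 97.2%, 58.4%, 35.1% and 4.3%, against 60.1%, 35.8%, 51.6% and 36.9% with TMM. It moved 34 of 40 single log2 ratios beyond their counting interval. Plain CPM called 5 genes lower and none higher between the stages in control, adding Notch1 and losing Lfng, where 14.7% of all were lower and 4.72% higher, with the median of all genes at -0.18 and 24.3% of all calls higher. Relative to genes of similar length, chosen after seeing the data, Lfng was lost from that comparison and no other call changed. With the longest transcript as length, 4 to 8 of the 10 genes kept their place in the order per kb of a library. No paired analysis was possible because each group holds 1 library.

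Depth limits Mfng and Dll1 in mesenchyme, at 13 and 23 counts in control. Intervals leave out differences between pools, which 1 library per group cannot show.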
